A study of Solanum lycopersicum with 6 samples.

Results

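The genes described here build the isoprenoid backbone, the C5 units and prenyl chains from which plants make carotenoids, sterols, chlorophyll side chains, quinones and terpenes, together with the terpene synthases that use them. Of the 36224 rows in the deposited gene table, 91 were taken: those annotated to the terpenoid backbone pathway and those described as terpene synthases, germacrene, linalool, phellandrene or viridiflorene synthases. A further 2 rows of the pathway were left out beforehand and are not analysed here, so totals for the families of DXS and GGPPS, named below, cover only the rows used. Each row was placed from its description and pathway text: 17 in the mevalonate pathway, 8 in the MEP pathway, 2 as isopentenyl diphosphate isomerase, 18 in prenyl chain synthesis, 15 in protein prenylation or other reactions, and 31 as terpene synthases. Of the 91 rows, 24 had no count in any library and 10 were counted but fell below the filter on low counts, which left 57 that were tested.

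RNA was sequenced from the fruit wall (pericarp) of tomato plants overexpressing the histone demethylase SlJMJ6 (JMJ6-OE) and of wild-type plants (WT), with 3 libraries of each. All fruit were of the cultivar Ailsa Craig, from plants raised in a greenhouse, and were sampled 37 days after anthesis. The labels name neither the transgene's promoter nor the number of transgenic lines, and they do not state whether replicates came from separate plants. Each p-value therefore reflects only the spread among these 6 libraries, which may be technical in part.

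Plants make the C5 unit isopentenyl diphosphate (IPP) and its isomer dimethylallyl diphosphate (DMAPP) by separate routes. The mevalonate pathway starts from acetyl-CoA in the cytosol and feeds sterols, sesquiterpenes and the farnesyl groups put on proteins. The methylerythritol phosphate (MEP) pathway starts from pyruvate and glyceraldehyde phosphate in plastids and feeds carotenoids, chlorophyll, tocopherol and plastoquinone side chains and most monoterpenes. Prenyl diphosphate synthases join C5 units into chains, and in ripening tomato pericarp the best known use of these chains is the synthesis of lycopene.

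Libraries held 30508225 to 36299263 counts in JMJ6-OE and 28539410 to 36487547 counts in WT, and a floor of 3 counts corresponds to 0.0752 to 0.111 CPM (counts scaled to a common library size), a limit that covers counting error only. The row taken for the overexpressed gene, a JmjC-domain demethylase chosen by its identifier, held 31.5, 37.4 and 41.3 CPM in JMJ6-OE, against 27.0, 23.5 and 25.5 CPM in WT. Its log2 fold change was 0.54 and its adjusted p 0.014, and the call was lost without JMJ6-OE replicate 2 or WT replicate 2, with adjusted p up to 0.055 over all alternatives. All 5 fruit and ripening markers were counted in every library, and their summed level ran from 10300 to 16800 CPM in JMJ6-OE and from 758 to 1110 CPM in WT. At the same age the genotypes thus differed widely in ripening transcripts, and an effect of the demethylase on the genes below cannot be told apart from a difference in ripening stage. Summed markers of the epidermis ran from 237 to 354 CPM in JMJ6-OE and from 182 to 272 CPM in WT, with 4 of 4 counted. CER6 made up most of that sum in every library and was not called by edgeR (log2 fold change 0.69, adjusted p = 0.0724). The markers did not move together: CD1 was called lower in JMJ6-OE by edgeR (log2 fold change -1.12, adjusted p = 0.00988). CD2 and CD3, with log2 fold changes of 0.005 and 0.011, were not called. Of 27 rows described as seed storage proteins or oleosins, 17 were counted, with sums of 34.7 to 73.6 CPM in JMJ6-OE and 10.6 to 14.9 CPM in WT; an oleosin row alone held 24.8, 51.8 and 62.0 CPM in JMJ6-OE, against 4.13, 7.42 and 4.40 CPM in WT. Their part in the results was not tested, and in bulk tissue fewer cells of a type and less RNA per cell cannot be told apart.

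Some genes of both routes to IPP, of IPP isomerisation and of prenyl chain elongation were called higher in JMJ6-OE pericarp. In the MEP pathway these were 2 of 8, of which ISPE alone was called whichever library was left out. HMG2 and an HMG3 row of the mevalonate pathway and ISPD of the MEP pathway were called lower. So were a farnesyl diphosphate synthase row, a row assigned to farnesol dehydrogenase and a pair of germacrene C synthase-like genes. With edgeR's quasi-likelihood F test and Benjamini-Hochberg adjusted p-values over all 20143 tested genes, 19 of the 57 tested members rose, 7 fell and 31 missed an adjusted p of 0.05. Over all tested genes 17.5% rose and 16.8% fell. The median log2 fold change, JMJ6-OE over WT, was 0.26 over the tested members and -0.01 over all tested genes. Groups did not overlap for 23 members that were higher and 12 that were lower in JMJ6-OE, where 25.7% of all tested genes were separated in each direction. The numbers of members called depended on single libraries: leaving out JMJ6-OE replicate 2 gave 10 higher and 1 lower, and leaving out WT replicate 2 gave 12 higher and 4 lower. Without JMJ6-OE replicate 3, or without WT replicate 1, there were 15 higher and 3 lower, and leaving out WT replicate 3 gave 17 higher and 5 lower. Dropping JMJ6-OE replicate 1 added a call for 5 members and removed it for 3. Of the 19 that rose, 10 were called whichever library was left out, and of the 7 that fell, 1.

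**Figure D1:**
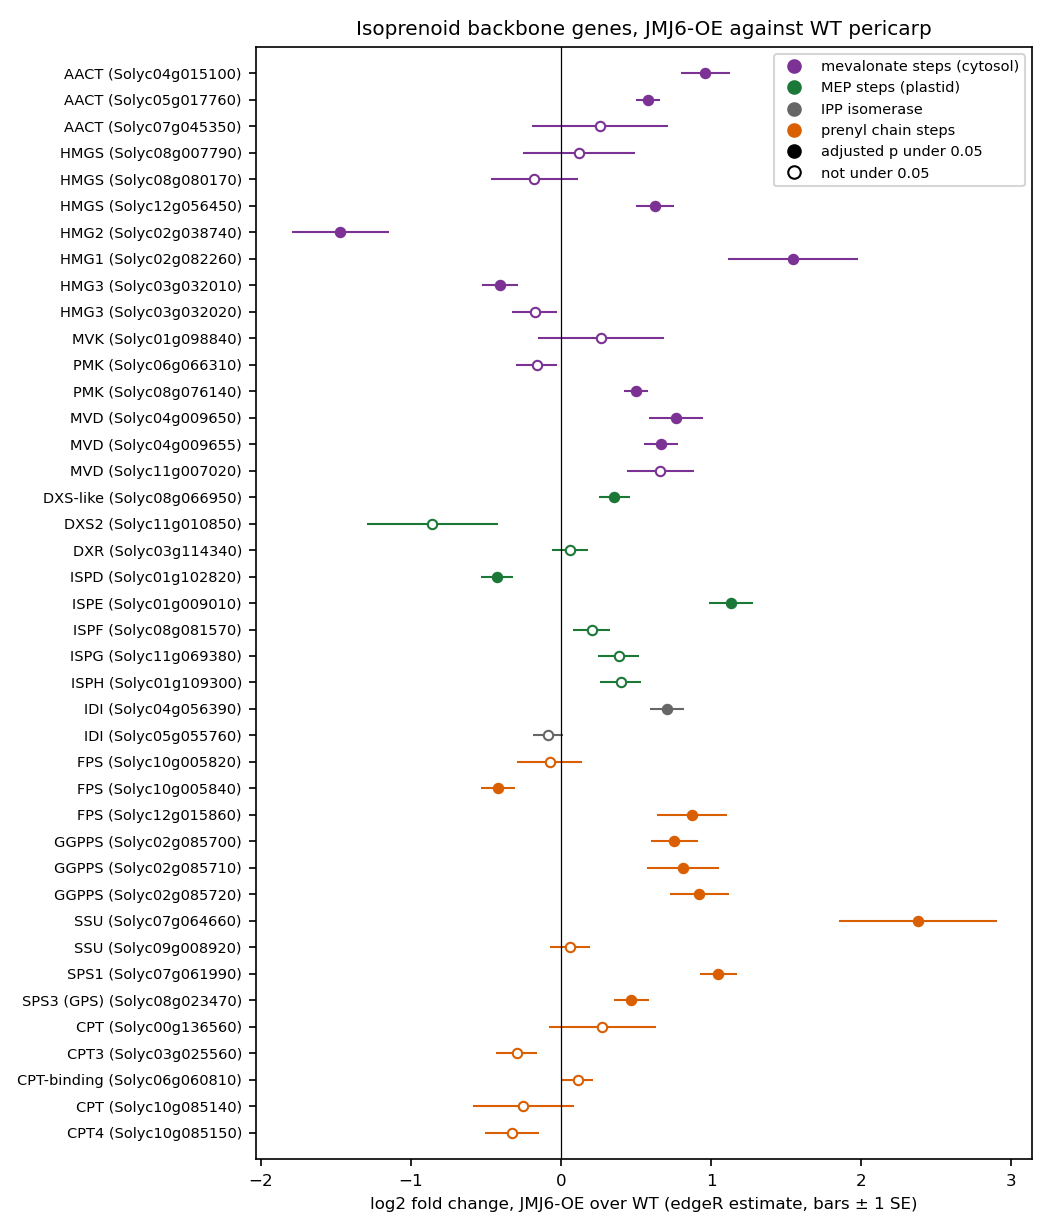
Log2 fold change (JMJ6-OE over WT, edgeR estimate) of each tested gene of the mevalonate, MEP, isomerase and prenyl chain steps, with bars of 1 standard error over 3 libraries a genotype; filled points had an adjusted p under 0.05. The scarce small subunit row SSU (2.38), HMG1, ISPE and SPS1 lie above 1, HMG2 lies at -1.47, and most other filled points lie between 0.35 and 1.

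In the MEP pathway, 2 of 8 genes rose, 1 fell and 5 were not called, with a median log2 fold change of 0.28. These counts stand beside 17.5% higher and 16.8% lower over all tested genes, and were not tested against those shares. The clearest member was ISPE (Solyc01g009010), the kinase that phosphorylates the cytidyl intermediate in the middle of the pathway. Its transcript stood at 108.9, 134.2 and 155.6 CPM in JMJ6-OE, against 53.1, 66.4 and 61.9 CPM in WT. Every JMJ6-OE library exceeded every WT library, the mean was 132.9 ± 23.4 CPM in JMJ6-OE and 60.5 ± 6.75 CPM in WT (SD, n = 3 each), and the log2 fold change was 1.14 ± 0.15 (SE, adjusted p = 0.00167). Its call held whichever library was left out.

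The entry enzyme, deoxyxylulose phosphate synthase (DXS), condenses pyruvate with glyceraldehyde phosphate and is regarded as a main point of flux control. A DXS-like row (Solyc08g066950) held 35.3, 38.7 and 43.2 CPM in JMJ6-OE, against 32.4, 30.4 and 29.0 CPM in WT. It was higher in all 3 JMJ6-OE libraries and rose by a log2 fold change of 0.35 ± 0.10 (adjusted p = 0.0341), but of the fits with a library left out the call held only without JMJ6-OE replicate 1 (adjusted p up to 0.125 in the others). DXS2 (Solyc11g010850) was scarce, at 0.682, 1.07 and 0.482 CPM in JMJ6-OE and 1.59, 0.802 and 1.70 CPM in WT, with overlapping groups (log2 fold change -0.86 ± 0.44, adjusted p = 0.166).

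The next enzyme, the reductoisomerase DXR (Solyc03g114340), had 125.2, 140.9 and 164.6 CPM in JMJ6-OE and 129.7, 148.7 and 134.7 CPM in WT. These groups overlapped, and the log2 fold change was 0.06 ± 0.12 (adjusted p = 0.731). ISPD (Solyc01g102820), which adds the cytidyl group just before ISPE acts, went the other way from ISPE. It fell to 20.6, 20.8 and 22.8 CPM in JMJ6-OE, against 27.5, 32.0 and 26.9 CPM in WT, without overlap (log2 fold change -0.43 ± 0.11, adjusted p = 0.019). Without JMJ6-OE replicate 2 its adjusted p was 0.0799, within a range of 0.0056 to 0.0799 over all alternatives.

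The last steps are carried out by the cyclase ISPF and by the iron-sulphur enzymes ISPG and ISPH, the last of which releases IPP and DMAPP. ISPG (Solyc11g069380) held 385.2, 468.0 and 516.6 CPM in JMJ6-OE, against 316.2, 361.7 and 370.4 CPM in WT. ISPH (Solyc01g109300) held 431.9, 522.5 and 599.9 CPM in JMJ6-OE, against 410.3, 375.9 and 394.2 CPM in WT. In both genes all JMJ6-OE libraries lay above all WT libraries, yet neither passed: the log2 fold change was 0.39 ± 0.14 for ISPG (adjusted p = 0.0638) and 0.40 ± 0.14 for ISPH (adjusted p = 0.06). ISPF (Solyc08g081570), with 46.7, 57.8 and 62.6 CPM in JMJ6-OE and 45.9, 51.2 and 47.9 CPM in WT, overlapped between genotypes (log2 fold change 0.20 ± 0.12, adjusted p = 0.229).

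In the 3 genes of the last steps JMJ6-OE replicate 1 was the lowest library of its genotype. Without it the adjusted p was 0.0265 for ISPF, 0.0134 for ISPG and 0.0099 for ISPH, which brings the MEP genes called higher to 5, against 1 when any other library was left out. DESeq2 called ISPG and ISPH as well, which made 4 MEP genes higher. Over all alternatives the adjusted p ran up to 0.537 for ISPF, 0.182 for ISPG and 0.17 for ISPH.

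Levels can be set against each other between genes only per transcript length, which the authors' FPKM, a read density scaled to transcript length and library total, provides. Averaged over all 6 libraries, the level was 286 FPKM for ISPH, 143 FPKM for ISPG, 73.7 FPKM for DXR, 60.4 FPKM for ISPE, 51.2 FPKM for ISPF, 24.6 FPKM for ISPD and 12.1 FPKM for the DXS-like row. ISPD, the 1 gene called lower, was thus among the least abundant steps of the pathway, and the last enzyme was the most abundant.

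**Figure D2:**
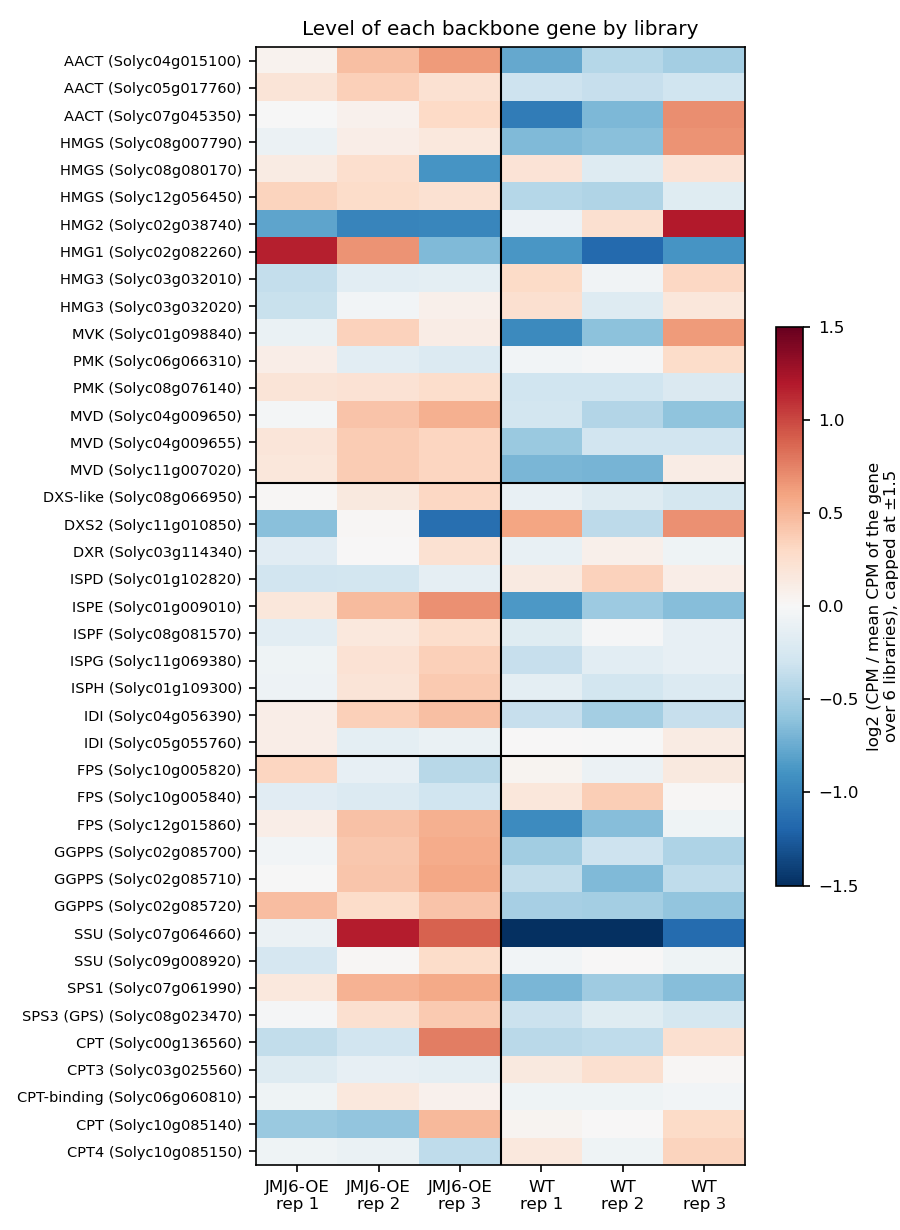
Log2 of each gene's CPM over its mean in the 6 libraries (colour, capped at 1.5 in either direction), with JMJ6-OE libraries left of WT libraries and rows grouped into mevalonate, MEP, isomerase and prenyl chain steps. HMG1 is high in JMJ6-OE replicates 1 and 2 but not in replicate 3, and 5 mevalonate genes are high in WT replicate 3 alone among the WT libraries.

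In the mevalonate pathway, 7 of 16 tested genes rose, 2 fell and 7 were not called, with a median log2 fold change of 0.38. In the same fit of every library, 17.5% of all tested genes rose and 16.8% fell. The 7 include neighbouring MVD rows whose separate counts are uncertain. Of the 7 that rose, 5 were called whichever library was left out; neither of the 2 that fell was. The counts were 9 higher and 1 lower without WT replicate 3, 5 and 0 without JMJ6-OE replicate 2, 6 and 1 without JMJ6-OE replicate 1, 6 and 0 without JMJ6-OE replicate 3, 6 and 1 without WT replicate 1, and 5 and 2 without WT replicate 2.

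The pathway opens with acetoacetyl-CoA thiolase (AACT), which joins a pair of acetyl-CoA molecules. The AACT gene Solyc04g015100 held 119.8, 158.1 and 179.8 CPM in JMJ6-OE, against 67.9, 86.1 and 80.9 CPM in WT. The AACT gene Solyc05g017760 held 125.5, 141.0 and 129.5 CPM in JMJ6-OE, against 88.7, 86.6 and 89.8 CPM in WT. Both were separated completely between genotypes and rose, by a log2 fold change of 0.96 ± 0.16 (adjusted p = 0.0046) for the gene on chromosome 4 and 0.58 ± 0.08 (adjusted p = 0.00205) for the gene on chromosome 5. The AACT gene Solyc07g045350 differed from them, with 45.5, 47.9 and 56.1 CPM in JMJ6-OE and 22.0, 28.7 and 74.1 CPM in WT. Its WT replicate 3 was above every JMJ6-OE library and the other WT libraries were below them, and the log2 fold change was 0.26 ± 0.45 (adjusted p = 0.697).

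HMG-CoA synthase (HMGS) adds the next acetyl unit. Of its 3 tested genes, Solyc12g056450 rose, with 13.8, 13.3 and 12.9 CPM in JMJ6-OE, against 8.22, 8.07 and 9.68 CPM in WT. The genotypes did not overlap and the log2 fold change was 0.63 ± 0.12 (adjusted p = 0.00841). HMGS Solyc08g007790 held 18.1, 20.6 and 21.5 CPM in JMJ6-OE and 12.2, 12.5 and 30.6 CPM in WT, where again WT replicate 3 alone stood above JMJ6-OE (log2 fold change 0.12 ± 0.37, adjusted p = 0.835). HMGS Solyc08g080170 held 37.0, 40.5 and 18.5 CPM in JMJ6-OE and 39.5, 29.9 and 39.4 CPM in WT. There JMJ6-OE replicate 3 stood below all other libraries (log2 fold change -0.18 ± 0.29, adjusted p = 0.674). A further HMGS row, Solyc08g080160, was counted but fell below the filter.

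HMG-CoA reductase (HMGR) makes mevalonate and is regarded as the rate-limiting step of the pathway. In tomato, HMG1 is best known from early fruit growth and HMG2 from ripening and from responses to wounding and pathogens. The HMGR genes moved in opposite directions. HMG1 (Solyc02g082260) held 145.4, 103.7 and 41.2 CPM in JMJ6-OE, against 35.4, 28.9 and 35.2 CPM in WT. JMJ6-OE replicates 1 and 2 were far above WT while replicate 3 lay just above it, and HMG1 rose by a log2 fold change of 1.55 ± 0.44, or 2.92-fold (adjusted p = 0.0382). HMG1 was not called without JMJ6-OE replicate 1 or 2 or without any one of the WT libraries (adjusted p of 0.0811 to 0.116 in these fits, where the smallest over all alternatives was 0.00013); without JMJ6-OE replicate 3 the adjusted p was 0.00124.

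HMG2 (Solyc02g038740) fell to 10.7, 9.33 and 9.42 CPM in JMJ6-OE, against 17.5, 21.9 and 42.1 CPM in WT. All JMJ6-OE libraries were close together and below all WT libraries, of which replicate 3 was highest, and the log2 fold change was -1.47 ± 0.32 (adjusted p = 0.0148). Without WT replicate 3 the log2 fold change was -1.05 (adjusted p = 0.00775), and without JMJ6-OE replicate 2 or 3 the adjusted p was 0.0615 and 0.0581, within a range of 2e-05 to 0.0615 over all alternatives.

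The table holds 2 neighbouring rows for HMG3, Solyc03g032010 and Solyc03g032020, described alike, so reads may have been divided between them and their separate values are uncertain. The first held 75.6, 86.6 and 87.4 CPM in JMJ6-OE, against 118.2, 93.1 and 120.1 CPM in WT. It fell without overlap by 0.41 ± 0.12 on the log2 scale (adjusted p = 0.0356), a call that held only without WT replicate 2 when a library was left out (adjusted p up to 0.0902 in the others). The other held 90.6, 110.8 and 120.2 CPM in JMJ6-OE and 135.1, 99.7 and 128.2 CPM in WT, which overlapped (log2 fold change -0.17 ± 0.15, adjusted p = 0.398).

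By FPKM, the HMG3 rows made up most of the HMGR transcript in every library. HMG1 held 24.6%, 16.7% and 7.08% of the HMGR sum in JMJ6-OE, against 4.89%, 5.01% and 4.53% in WT. HMG2 held 4.54%, 3.77% and 4.07% in JMJ6-OE, against 6.09%, 9.53% and 13.6% in WT. Both shares were separated completely between genotypes, HMG1 higher and HMG2 lower in JMJ6-OE; shares within a library do not depend on scaling. The HMGR sum on TMM-scaled library sizes was 116.9, 122.9 and 114.9 FPKM in JMJ6-OE and 142.7, 114.0 and 153.3 FPKM in WT, with overlap. As deposited, without that scaling, it was 117.1, 114.0 and 101.6 FPKM in JMJ6-OE and 147.9, 124.7 and 164.4 FPKM in WT, without overlap, so the separation of the sums rests on the scaling.

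**Figure D3:**
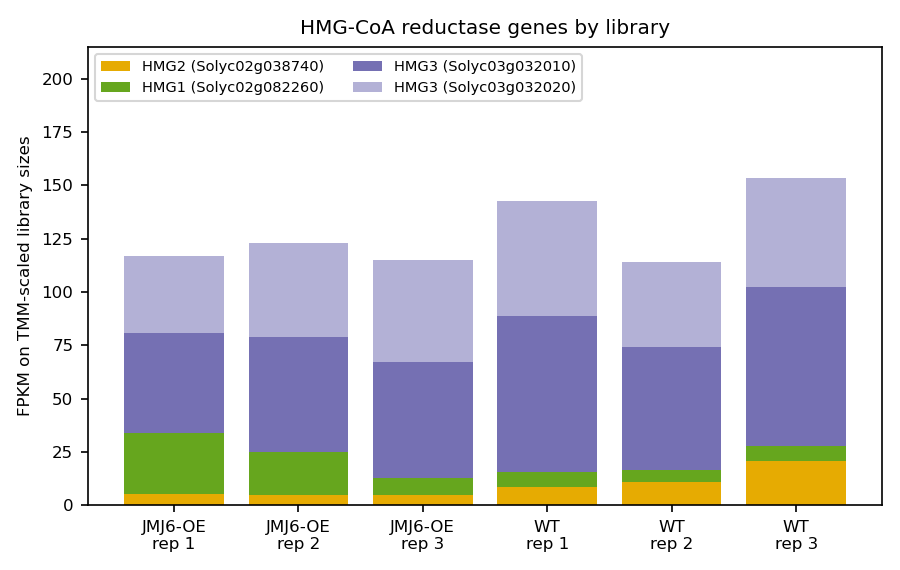
Stacked level of the 4 HMG-CoA reductase genes in each library, in deposited FPKM divided by the library's TMM factor, with JMJ6-OE libraries left of WT libraries. HMG1 takes 24.6% of the bar in JMJ6-OE replicate 1 and 7.08% in replicate 3, against 4.53% to 5.01% in WT, and both HMG3 rows together form most of every bar.

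The final mevalonate steps add phosphates and remove carbon dioxide to give IPP. Mevalonate kinase (MVK, Solyc01g098840) held 35.5, 48.1 and 40.9 CPM in JMJ6-OE and 19.6, 24.7 and 59.0 CPM in WT. WT replicate 3 was again the highest of all libraries, and the log2 fold change was 0.27 ± 0.42 (adjusted p = 0.662). Of the 2 phosphomevalonate kinase genes, Solyc08g076140 held 42.0, 42.7 and 44.0 CPM in JMJ6-OE, against 29.7, 29.7 and 31.6 CPM in WT. It rose by a log2 fold change of 0.50 ± 0.08 (adjusted p = 0.0035), with libraries of each genotype close together. The other, Solyc06g066310, held 17.3, 14.4 and 14.1 CPM in JMJ6-OE and 15.7, 16.0 and 19.5 CPM in WT, and did not separate the genotypes (log2 fold change -0.16 ± 0.14, adjusted p = 0.397).

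Mevalonate diphosphate decarboxylase (MVD) completes IPP. Its genes Solyc04g009650 and Solyc04g009655 are neighbours with the same description, so their separate counts are uncertain. The first held 10.2, 14.1 and 15.2 CPM in JMJ6-OE, against 8.62, 7.74 and 6.87 CPM in WT. The second held 26.7, 30.7 and 29.5 CPM in JMJ6-OE, against 16.1, 19.3 and 19.3 CPM in WT. Both rose without overlap, by a log2 fold change of 0.77 ± 0.18 (adjusted p = 0.0158) and 0.67 ± 0.11 (adjusted p = 0.00465). The call of the second held whichever library was left out, and that of the first only without JMJ6-OE replicate 1 or WT replicate 1 (adjusted p up to 0.0636 in the others). MVD Solyc11g007020 held 77.4, 89.2 and 85.8 CPM in JMJ6-OE, against 42.7, 42.4 and 74.2 CPM in WT. All JMJ6-OE libraries exceeded all WT libraries, but WT replicate 3 came close to them and the gene did not pass (log2 fold change 0.66 ± 0.23, adjusted p = 0.0601), though DESeq2 and limma-voom called it.

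WT replicate 3 thus stood apart in several mevalonate genes. In 5 of the 16, the AACT gene on chromosome 7, HMGS Solyc08g007790, HMG2, MVK and MVD Solyc11g007020, it was at least 1.5-fold above both other WT libraries; at a 2-fold limit, chosen after seeing the data, it was 3 of 16. Over all tested genes this library was 1.5-fold above both others in 4.39% and 2-fold above both in 2.1%. At the 1.5-fold limit this held for 0 of 8 MEP, 0 of 2 isomerase, 2 of 15 prenyl chain and 1 of 4 terpene synthase genes. It held for 0 of 12 genes of protein prenylation and other reactions. Among the related pathways described below it held for 3 of 15 diterpenoid, 2 of 7 monoterpenoid and 1 of 8 sesquiterpenoid and triterpenoid genes. For carotenoid, steroid and quinone genes it was 0 of 31, 0 of 33 and 1 of 41. Without WT replicate 3, the log2 fold change was 0.93 for the AACT gene (adjusted p = 0.0103), 0.66 for HMGS (adjusted p = 0.0144), 0.86 for MVK (adjusted p = 0.0166) and 0.94 for MVD (adjusted p = 0.00234), and all 4 were then called higher in JMJ6-OE. Over all alternatives the adjusted p of these genes ran up to 0.98 for AACT, 0.929 for HMGS, 0.954 for MVK and 0.174 for MVD. Of the 5 genes, HMG2 was the one lower in JMJ6-OE both with and without that library. In JMJ6-OE replicate 3, HMG1 and HMGS Solyc08g080170 were at least 1.5-fold below both other JMJ6-OE libraries, which held for 4 of the 57 members and for 7.4% of all tested genes.

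**Figure D4:**
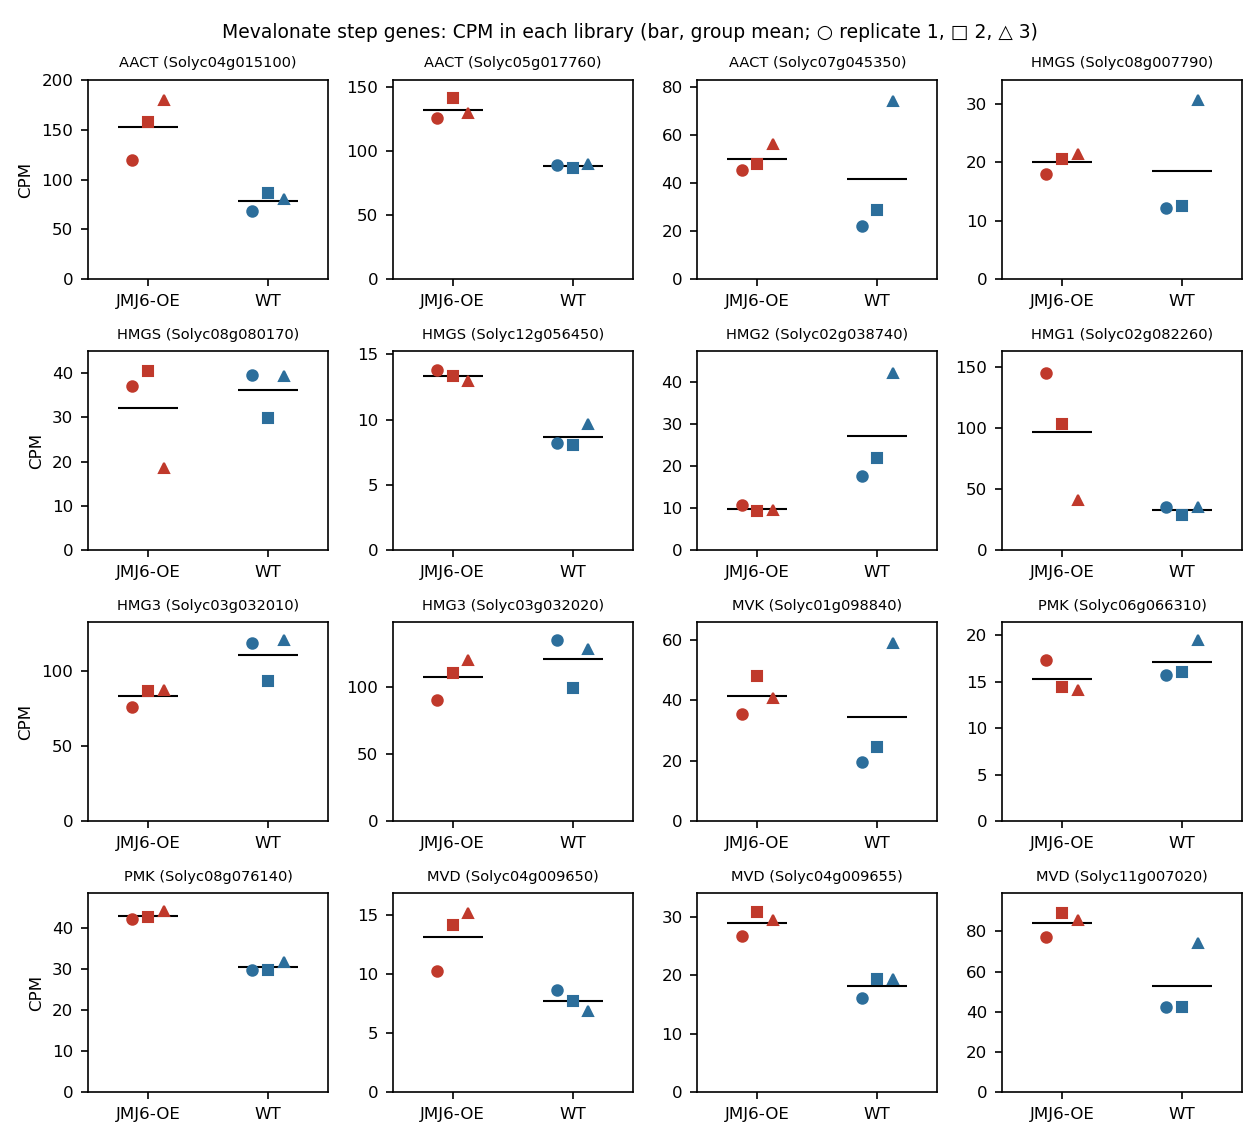
CPM of the 16 tested mevalonate genes in each library, with JMJ6-OE (red) left of WT (blue), the symbol giving the replicate number and the line the group mean of 3. The triangle of WT replicate 3 lies above the JMJ6-OE libraries for the AACT gene on chromosome 7 (74.1 CPM), HMGS Solyc08g007790 (30.6 CPM), HMG2 (42.1 CPM) and MVK (59.0 CPM).

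Isopentenyl diphosphate isomerase (IDI) balances IPP against DMAPP for both routes. The IDI gene Solyc04g056390 rose, with 167.7, 199.7 and 214.6 CPM in JMJ6-OE, against 123.1, 110.3 and 123.5 CPM in WT. The genotypes were well apart and the log2 fold change was 0.71 ± 0.11 (adjusted p = 0.00373), called whichever library was left out. The IDI gene Solyc05g055760 held 37.9, 31.9 and 32.8 CPM in JMJ6-OE and 35.5, 35.1 and 38.4 CPM in WT, without separation (log2 fold change -0.09 ± 0.10, adjusted p = 0.529). By FPKM the gene on chromosome 4 made up 76.7% to 83.0% of the IDI sum in JMJ6-OE and 70.1% to 72.1% in WT.

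Among the prenyl chain genes, 7 of 15 tested rose, 1 fell and 7 were not called, with a median log2 fold change of 0.27. With every library kept, 17.5% of all tested genes rose and 16.8% fell. The 7 include neighbouring GGPPS rows that may share reads. Of the 7 that rose, 3 were called whichever library was left out. Without JMJ6-OE replicate 2 there were 3 higher and 0 lower, and without JMJ6-OE replicate 3, WT replicate 1 or WT replicate 2 there were 4 higher and 0 lower. Without WT replicate 3 there were 5 higher and 1 lower, and without JMJ6-OE replicate 1 there were 7 and 1.

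Farnesyl diphosphate synthase (FPS) makes the C15 chain for sterols and sesquiterpenes. FPS Solyc12g015860 held 143.6, 181.6 and 193.2 CPM in JMJ6-OE, against 69.5, 85.9 and 127.7 CPM in WT. It rose without overlap by a log2 fold change of 0.87 ± 0.23 (adjusted p = 0.0279), a call that held only without JMJ6-OE replicate 1 or WT replicate 3 when a library was left out (adjusted p up to 0.0968 in the others). The FPS rows Solyc10g005840 and Solyc10g005820 lie beside each other and may share reads. The first fell to 23.4, 22.7 and 21.2 CPM in JMJ6-OE, against 29.6, 33.8 and 26.6 CPM in WT (log2 fold change -0.42 ± 0.11, adjusted p = 0.0266), and its call held in the same pair of fits (adjusted p up to 0.0847 in the others). Solyc10g005820 held 6.48, 4.76 and 3.89 CPM in JMJ6-OE and 5.34, 4.89 and 5.72 CPM in WT, which overlapped (log2 fold change -0.07 ± 0.22, adjusted p = 0.822). The gene on chromosome 12 made up 84.0%, 88.0% and 89.5% of the FPS sum by FPKM in JMJ6-OE, against 68.9%, 71.4% and 81.4% in WT.

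Geranylgeranyl diphosphate synthase (GGPPS) makes the C20 chain for carotenoids and chlorophyll. The rows Solyc02g085700, Solyc02g085710 and Solyc02g085720 are neighbours on chromosome 2, so reads may be divided among them. The most abundant, Solyc02g085700, held 76.1, 104.1 and 115.2 CPM in JMJ6-OE, against 54.7, 63.4 and 56.7 CPM in WT. It rose without overlap by a log2 fold change of 0.76 ± 0.16 (adjusted p = 0.00954). Solyc02g085710 held 2.48, 3.33 and 3.71 CPM in JMJ6-OE, against 1.93, 1.58 and 1.91 CPM in WT, and rose by a log2 fold change of 0.81 ± 0.24 (adjusted p = 0.0364); with a library left out it was called only without JMJ6-OE replicate 1 (adjusted p up to 0.122 in the others). Solyc02g085720 held 3.69, 3.24 and 3.60 CPM in JMJ6-OE, against 1.89, 1.88 and 1.78 CPM in WT, and rose by a log2 fold change of 0.92 ± 0.20 (adjusted p = 0.0106), called whichever library was left out. All 3 rows of this cluster were thus higher in every JMJ6-OE library than in any WT library, and the GGPPS row Solyc11g011240 was counted below the filter.

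A pair of rows is described as the small subunit of a heterodimeric GGPPS; in mint such a subunit shortens the product chain. The abundant one, Solyc09g008920, held 125.9, 151.2 and 181.9 CPM in JMJ6-OE and 145.7, 150.2 and 143.6 CPM in WT, with overlap (log2 fold change 0.06 ± 0.13, adjusted p = 0.752). The scarce one, Solyc07g064660, had 14, 35 and 23 counts in JMJ6-OE, against 3, 5 and 8 counts in WT. It rose by a log2 fold change of 2.38 ± 0.53 (adjusted p = 0.0126) from very few counts, and was not called without JMJ6-OE replicate 2 or WT replicate 2 (adjusted p up to 0.0591, and from 0.0042 over all alternatives).

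Long chains for quinones are made by solanesyl diphosphate synthase. SPS1 (Solyc07g061990) held 80.1, 103.2 and 106.6 CPM in JMJ6-OE, against 44.5, 49.7 and 45.9 CPM in WT. Every JMJ6-OE library was well above WT, the mean was 96.6 ± 14.4 CPM in JMJ6-OE and 46.7 ± 2.66 CPM in WT (SD, n = 3 each), and the log2 fold change was 1.05 ± 0.12 (adjusted p = 0.00111), called whichever library was left out. The row with the symbol SPS3 (Solyc08g023470), described as a geranyl diphosphate synthase, which makes the C10 chain, held 53.2, 63.8 and 71.1 CPM in JMJ6-OE, against 43.4, 47.5 and 45.1 CPM in WT. It rose without overlap by a log2 fold change of 0.47 ± 0.12 (adjusted p = 0.0198), a call that held only without JMJ6-OE replicate 1 or WT replicate 2 when a library was left out (adjusted p up to 0.0726 in the others).

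Cis-prenyltransferases make chains such as dolichol and, in tomato glandular trichomes, neryl diphosphate for monoterpenes. Of 7 such rows, 5 were tested and edgeR's quasi-likelihood F test, DESeq2 and limma-voom each called 0, and 0 had an unadjusted p under 0.05 in edgeR. Their log2 fold changes ran from -0.33 for CPT4 (Solyc10g085150) to 0.27 for Solyc00g136560. CPT3 (Solyc03g025560) held 5.86, 6.18 and 6.08 CPM in JMJ6-OE and 7.44, 7.97 and 6.82 CPM in WT, lower without overlap (log2 fold change -0.29 ± 0.14, adjusted p = 0.137). CPT4, which neighbours the cis-prenyltransferase row Solyc10g085140 (log2 fold change -0.25 ± 0.34, adjusted p = 0.602), held 5.33, 5.20 and 4.26 CPM in JMJ6-OE and 6.22, 5.34 and 7 CPM in WT, lower without overlap (log2 fold change -0.33 ± 0.18, adjusted p = 0.194). The row for a CPT-binding protein (Solyc06g060810) changed by 0.11 ± 0.10 on the log2 scale, short of a call (adjusted p = 0.44). The row like NDPS1, the trichome enzyme for neryl diphosphate, and 1 further row had no count in any library.

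Of the 15 rows for protein prenylation and other reactions, 12 were tested, 2 rose, 1 fell and 9 did not pass, with a median log2 fold change of 0.07. The shares over all tested genes were 17.5% higher and 16.8% lower, so the counts of this group do not exceed them by a gene. FACE1 (Solyc01g094930), a protease that trims prenylated proteins, held 106.5, 116.3 and 117.4 CPM in JMJ6-OE, against 89.8, 90.4 and 81.0 CPM in WT. It rose without overlap by a log2 fold change of 0.38 ± 0.08 (adjusted p = 0.0128), and was not called without JMJ6-OE replicate 2 or WT replicate 3 (adjusted p up to 0.0606, and from 0.0012 over all alternatives). Geranylgeranyl reductase (CHLP) saturates the C20 chain for chlorophyll and tocopherol. CHLP Solyc01g088310 held 17.5, 25.1 and 25.6 CPM in JMJ6-OE, against 14.4, 12.1 and 14.1 CPM in WT. It rose by a log2 fold change of 0.75 ± 0.17 (adjusted p = 0.0127), and was not called without JMJ6-OE replicate 2 or WT replicate 2 (adjusted p up to 0.0551, and from 0.0006 over all alternatives). The CHLP gene Solyc03g115980, more abundant at 74.5 FPKM on average against 7.02 FPKM, held 74.1, 102.8 and 106.7 CPM in JMJ6-OE and 114.7, 121.0 and 101.5 CPM in WT (log2 fold change -0.25 ± 0.15, adjusted p = 0.231), and its groups overlapped.

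The row that fell, Solyc12g088880, is assigned to farnesol dehydrogenase by its pathway text but described as similar to dihydroflavonol reductase, so its role is uncertain. It held 5.24, 4.82 and 4.34 CPM in JMJ6-OE, against 10.3, 7.37 and 6.31 CPM in WT (log2 fold change -0.73 ± 0.21, adjusted p = 0.0334), a call that held only without JMJ6-OE replicate 1 or WT replicate 3 when a library was left out (adjusted p up to 0.0984 in the others). The farnesyltransferase subunits had a log2 fold change of -0.24 ± 0.08 for FTB (adjusted p = 0.0589) and 0.18 ± 0.08 for FTA (adjusted p = 0.121). In both subunits the genotypes did not overlap. The other 6 tested rows of this group ran from -0.51 to 0.38 in log2 fold change, and 3 rows for isoprenylcysteine methyltransferase had no count in any library.

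Terpene synthases turn prenyl diphosphates into volatile and defensive terpenes and are known in tomato mainly from glandular trichomes. The rows taken here by their description were hardly expressed in this pericarp: 19 of 31 had no count in any library, 8 were counted below the filter and 4 were tested. The choice leaves out the ent-kaurene synthase rows Solyc07g066670 and Solyc07g066675, which averaged 11.5 and 29.7 FPKM over all libraries and are counted with the diterpenoid genes below. Sums that follow cover the rows taken. Their FPKM summed to 3.21, 4.07 and 1.86 in JMJ6-OE and 5.20, 4.54 and 12.85 in WT, where the mevalonate genes summed to 435.3, 461.6 and 428.0 FPKM in JMJ6-OE and 368.0, 367.4 and 467.7 FPKM in WT. Of 5 glandular trichome markers, 3 were counted, at a summed 0.964 to 1.83 CPM in JMJ6-OE and 1.05 to 1.76 CPM in WT, and the acylsugar acyltransferases ASAT1 and ASAT4 were at 0 in all libraries.

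Of the 4 tested terpene synthases 2 fell and 0 rose in edgeR's quasi-likelihood F test, where 16.8% of all tested genes fell and 17.5% rose. DESeq2, and an unadjusted p under 0.05 in edgeR, each gave 1 higher, Solyc12g006570. Both that fell are described as like germacrene C synthase, which makes a sesquiterpene from farnesyl diphosphate, and they neighbour each other on chromosome 6, so their separate counts are uncertain. SSTLH1 (Solyc06g060013) had 4, 10 and 7 counts in JMJ6-OE, against 36, 58 and 42 counts in WT. SSTLE1 (Solyc06g060010) had 6, 9 and 0 counts in JMJ6-OE, against 27, 33 and 30 counts in WT. Every JMJ6-OE library was below every WT library in both genes. The log2 fold change was -2.45 ± 0.42 for SSTLH1 (adjusted p = 0.00476, called whichever library was left out) and -2.38 ± 0.72 for SSTLE1 (adjusted p = 0.0384). The call of SSTLE1 held only without JMJ6-OE replicate 3 when a library was left out (adjusted p up to 0.0993 in the others).

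Among the terpene synthase rows taken here, Solyc02g079840 with the symbol TPS10 had the highest mean FPKM. It had 404, 373 and 263 counts in JMJ6-OE and 378, 243 and 274 counts in WT. These overlapped (log2 fold change 0.37 ± 0.28, adjusted p = 0.346), and without WT replicate 1 the adjusted p was 0.0304, within a range up to 0.747 over all alternatives. The sesquiterpene synthase row Solyc12g006570 had 61, 118 and 4 counts in JMJ6-OE, against 3, 5 and 14 counts in WT. JMJ6-OE replicates 1 and 2 were high and replicate 3 was within the range of WT, and the row did not pass (log2 fold change 3.20 ± 1.05, adjusted p = 0.0551). DESeq2 called it, and without JMJ6-OE replicate 3 its adjusted p was 0.00751, within a range of 0.0043 to 0.203 over all alternatives.

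A cluster of viridiflorene synthase rows on chromosome 1, which make a sesquiterpene and may share reads, was counted almost only in WT replicate 3. TPS31 (Solyc01g101170) had 0, 4 and 0 counts in JMJ6-OE and 0, 6 and 366 counts in WT. The TPS32 row Solyc01g101180 had 0, 0 and 0 counts in JMJ6-OE and 0, 0 and 175 counts in WT, and the TPS32 row Solyc01g101190 had 0, 0 and 0 counts in JMJ6-OE and 0, 3 and 152 counts in WT. All 3 were below the filter and have no test, and a difference between genotypes would rest on WT replicate 3 alone. PVS1 (Solyc01g101220), a further viridiflorene synthase-like row, had 0, 0 and 1 counts in JMJ6-OE, against 5, 8 and 8 counts in WT. The linalool synthase row TPS3 (Solyc01g105890) had 4, 0 and 13 counts in JMJ6-OE and 8, 6 and 54 counts in WT, again highest in WT replicate 3. The remaining 3 counted rows had at most 8 counts in a library.

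CYP71D55 (Solyc04g083140), which is not itself a terpene synthase but is described as premnaspirodiene oxygenase, an enzyme known from henbane to oxidise a sesquiterpene, shared that library. It held 0.31, 0.743 and 0.667 CPM in JMJ6-OE, against 3.75, 7.37 and 86.0 CPM in WT. It fell without overlap, with a log2 fold change of -5.82 (adjusted p = 0.0283) that became -3.32 (adjusted p = 0.00584) without WT replicate 3, and it was not called without any one of the JMJ6-OE libraries (adjusted p of 0.0891 to 0.113 in these fits, and 3.81e-05 to 0.207 over all alternatives).

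**Figure D5:**
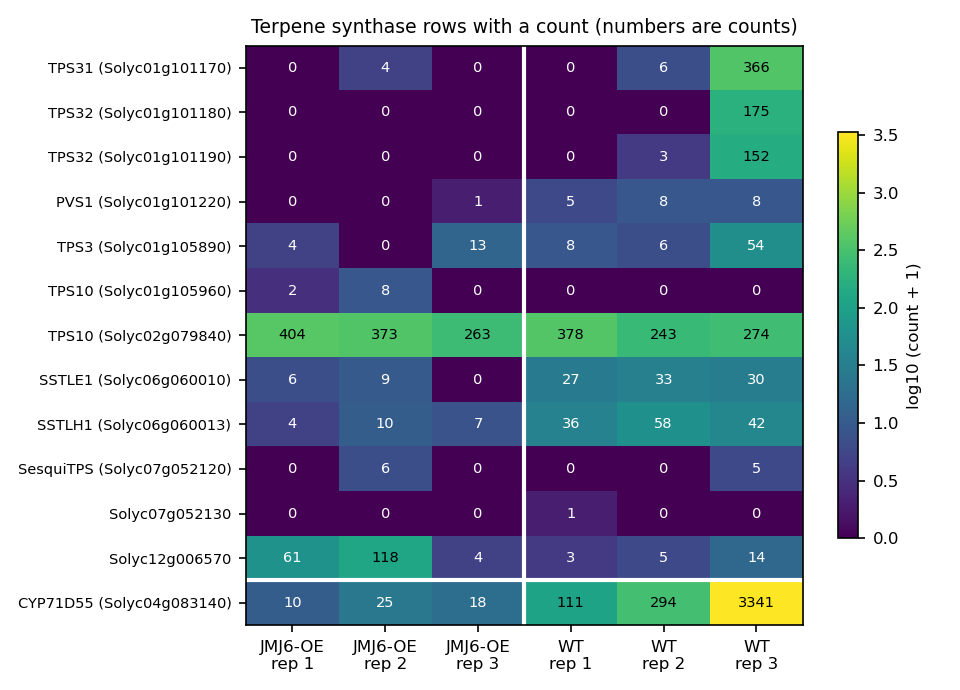
Read counts (printed in each cell; colour, log10 of the count plus 1) of the 12 terpene synthase rows with a count and, below the line, of CYP71D55, with JMJ6-OE libraries left of WT libraries. The germacrene C synthase-like rows are lower in all JMJ6-OE libraries, and TPS31 and both TPS32 rows reach 152 to 366 counts in WT replicate 3 alone.

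Pathways that draw on the backbone were described from the same table, without the rows already given. Over all tested genes 17.5% rose and 16.8% fell, with a median log2 fold change of -0.01, and no pathway was tested against these shares. Of the 31 tested genes annotated to the carotenoid pathway 7 rose and 11 fell, with a median log2 fold change of -0.28. That annotation also takes in genes of abscisic acid synthesis and breakdown. Rows described as aldehyde oxidase, xanthoxin dehydrogenase-like, NCED5 and ABA 8'-hydroxylase were among the 11 that fell, and a further NCED row (Solyc07g056570) rose. Single steps towards lycopene rose strongly. Phytoene synthase PSY1, which joins a pair of C20 chains, had a log2 fold change of 3.67, the zeta-carotene isomerase ZISO of 4.10 and the prolycopene isomerase CRTISO of 1.10, and lycopene epsilon cyclase LCYE, which leads away from lycopene to lutein, of -1.58. These 4 were called whichever library was left out. The other 3 counted steps of the list did not pass: the log2 fold change was 0.39 for phytoene desaturase PDS (adjusted p = 0.0803), 0.31 for zeta-carotene desaturase ZDS (adjusted p = 0.0913) and -0.28 for PSY2 (adjusted p = 0.0727), and the lycopene beta cyclase row of the list, Solyc04g040190, had no count. Another row of that description, LCY1 (Solyc10g079480), chosen after its values were seen, had 34, 38 and 11 counts in JMJ6-OE, against 109, 100 and 76 counts in WT. It fell without overlap (log2 fold change -1.63 ± 0.43, adjusted p = 0.0242) and was not called without WT replicate 1 or 2 (adjusted p of 0.0756 and 0.0609, within a range of 0.00286 to 0.0756 over all alternatives). Set beside PSY1 and ZISO, the called genes of the MEP and GGPPS steps had smaller log2 fold changes, of -0.43 to 1.14, and 2.38 for the scarce GGPPS small subunit row Solyc07g064660; the difference between genes was not tested.

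Of the 33 tested steroid genes 8 rose and 2 fell, with a median log2 fold change of 0.12. This and the counts below stand beside 17.5% higher and 16.8% lower over all tested genes. For ubiquinone and terpenoid-quinone genes, 13 of 41 rose and 2 fell, with a median of 0.15. Of diterpenoid genes 3 of 15 rose and 2 fell, of monoterpenoid genes 2 of 7 rose and 0 fell, and of sesquiterpenoid and triterpenoid genes 1 of 8 rose and 2 fell. One of the 2 that fell in the last group is CYP71D55. The counts changed with the library left out. Carotenoid genes had 5 to 11 higher and 7 to 12 lower, the most higher without JMJ6-OE replicate 1 (11) and the fewest lower without JMJ6-OE replicate 3 or WT replicate 2 (7). Steroid genes had 5 to 10 higher, the fewest without WT replicate 2, and 0 to 4 lower, the most without JMJ6-OE replicate 1 and 0 without JMJ6-OE replicate 2 or 3 or WT replicate 3. Quinone genes had 11 to 16 higher and 2 to 5 lower, the most without JMJ6-OE replicate 1. The diterpenoid, monoterpenoid and sesquiterpenoid counts, all of 4 or fewer, moved by at most 2 genes.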

How the data were processed

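Pericarp RNA of 3 JMJ6-OE and 3 WT samples was sequenced as mRNA libraries, grouped by their sample titles. The authors used HISAT2, per the submitters' processing notes. Which version, counting program, build and annotation served, and whether counting used strand, is not given in the sources used here, so overlapping, antisense and near-identical genes may share reads and no coordinates are given. The deposited table gives raw counts per gene and library, FPKM, and the authors' own log2 fold change, p-value and false discovery rate, per the file headers. The FPKM values deposited by the authors follow total counts with no further scaling, checked on these genes. Of the 57 tested members, 30 had a false discovery rate under 0.05 in the authors' deposited table, including all 26 called here, with the same sign.

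Counts were used as deposited. Genes passing edgeR's filterByExpr (minimum count 10) were scaled by TMM and tested in edgeR 4.0.16 (R 4.3.3) by its quasi-likelihood F test, robust setting, in a model of genotype alone, with Benjamini-Hochberg adjustment at 0.05 over 20143 genes. A call means an adjusted p under 0.05. Standard errors are log2 fold changes, without sign, over the root of F; CPM is on TMM-scaled library sizes, and the common biological coefficient of variation was 0.21. FPKM served only for levels between genes and shares. The fitting code was tested on simulated counts with known changes. For replicate pairs of a genotype, chi-square over its degrees of freedom was 20.1 to 75.9, far above the 1 of sampling noise, so no pair is 1 library deposited again.

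Named are all tested mevalonate, MEP, isomerase and prenyl chain genes, called genes of the other reactions, and called terpene synthases and the 3 with the highest mean FPKM; FTA, FTB, the second CHLP gene, the counted terpene synthases below the filter CYP71D55 and LCY1 were added after their values were seen. Members, lists and steps were chosen with earlier results of these data known. Row Solyc06g008490 stands for SlJMJ6 by its identifier alone. One cyclase of the carotenoid list was left out because the table describes its row as another protein. Tried as alternatives were scaling by RLE or upper quartile, the tests of DESeq2 1.42.0 and limma 3.58.1 (voom), no filter or a filter of 1 CPM in 3 libraries, a replicate block, and leaving out each library. Figures were drawn with matplotlib 3.10.9.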

Additional observations from a re-analysis of the deposited data

How the results depend on the processing

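Members called higher and lower were 19 and 7, and 19 and 7 under RLE scaling, 19 and 8 under upper-quartile scaling, 23 and 7 by DESeq2, 20 and 7 by limma-voom, 18 and 6 without a filter and 18 and 6 at 1 CPM in 3 libraries. No member that passed the test changed sign under any alternative run. With each library left out in turn there were 10 to 22 members higher and 1 to 6 lower. Of all tested genes 2027 to 4169 were higher and 2046 to 3962 lower, against 3517 and 3394 with every library. The counts thus moved in both directions, in fits that also had fewer samples, and why they moved was not tested. The fewest came without JMJ6-OE replicate 2, where 15 members lost their call. The number of mevalonate genes at least 1.5-fold higher in WT replicate 3 than in both other WT libraries was 5 of 16, and 3 at a 2-fold limit chosen after seeing the data. Of all tested genes 4.39% passed the 1.5-fold limit and 2.1% the 2-fold limit. The cause was not tested.

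Replicate numbers did not pair the libraries: the correlation of same-numbered deviations was 0.0638, 0.0320 and -0.0603. With the number as a replicate block there were 18 members higher and 5 lower, and 5 lost and 2 gained a call. Upper-quartile scaling shifted the median of all genes by -0.063, and higher genes were 44.7% of all calls, against 50.9% under TMM. Depth limits the terpene synthase rows taken here most: all but 1 of them had at most 366 counts in any library.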

Other observations

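Sterol genes, which take farnesyl diphosphate from the mevalonate route, differed among themselves. CYP51G1 (Solyc01g008110), the sterol demethylase, held 279.7, 374.7 and 311.9 CPM in JMJ6-OE, against 163.5, 169.6 and 179.1 CPM in WT. It rose without overlap (log2 fold change 0.92 ± 0.12, adjusted p = 0.00198) whichever library was left out. The sterol desaturase STE1 and the sterol reductase DIM each had an abundant and a scarce counted row, and the abundant row of neither was called: Solyc02g063240 (STE1) averaged 35.5 ± 1.25 CPM in JMJ6-OE and 33.5 ± 1.65 CPM in WT (SD, n = 3 each; log2 fold change 0.08, adjusted p = 0.47 by edgeR), and Solyc02g030170 (DIM) averaged 485.5 ± 35.0 CPM in JMJ6-OE and 506.4 ± 48.3 CPM in WT (SD, n = 3 each; log2 fold change -0.06, adjusted p = 0.722 by edgeR). The scarce STE1 row, Solyc02g086180, held 12.5, 43.7 and 1.37 CPM in JMJ6-OE, against 0.203, 0.1 and 0.232 CPM in WT. The scarce DIM row, Solyc02g069490, held 13.9, 76.0 and 0.111 CPM in JMJ6-OE, against 0, 0.401 and 0.257 CPM in WT. SQE1 (Solyc04g077440), squalene epoxidase, held 70.4, 54.8 and 26.1 CPM in JMJ6-OE and 28.4, 23.5 and 25.5 CPM in WT. In both scarce rows and SQE1 the lowest JMJ6-OE library was replicate 3, as for HMG1 (41.2 CPM there), and of the 33 tested steroid genes 10 were at least 1.5-fold below both other JMJ6-OE libraries in it, where 7.4% of all tested genes were. The scarce STE1 row was called (log2 fold change 6.74 ± 1.45, adjusted p = 0.0158, up to 0.193 over the alternatives, and not called without WT replicate 2 or 3), and so was the scarce DIM row (log2 fold change 6.98 ± 2.05, adjusted p = 0.0437, up to 0.47 over the alternatives, and with a library left out called only without JMJ6-OE replicate 3). SQE1 was not (log2 fold change 0.97, adjusted p up to 0.198 over the alternatives). These genes were chosen after their values were seen, and what sets JMJ6-OE replicate 3 apart in them was not tested.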
